A study of Mus musculus with 9 samples.

Results

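The cytosolic ribosomal proteins are the protein subunits of the ribosome that works outside the mitochondria. They were taken from the gene table that the authors deposited for RNA-seq of mouse colon epithelium, as protein-coding genes with the symbol pattern Rpl or Rps and a number, plus Rpsa, Rplp0, Rplp1 and Rplp2. The rule found 80 of the 17511 genes in the table, 48 of the large and 32 of the small subunit. All libraries came from mouse large intestinal cells, loosened from fresh colon with EDTA and strained. All carried the genotype Cdx1-/- Cdx2f/f, so the Cdx1 null and floxed Cdx2 alleles are shared by both groups. Those called DKO were tagged vill (+) and those called Wt were tagged vill (-), and the labels do not spell out the vill tag or the promoter behind it. RNA-seq and ATAC-seq each had 2 DKO and 2 Wt libraries from mice given tamoxifen for 6 days, and Cdx2 ChIP-seq had 1 Wt library tagged untreated. The labels give no age and do not say whether replicates are separate mice. The p-values therefore reflect the variation among these libraries alone, and that variation may be technical.

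A ribosome joins a small subunit, which reads the mRNA, to a large subunit, which makes the peptide bond. The proteins are needed in nearly equal numbers, and their genes are active in every dividing or secreting cell, including the fast-renewing crypts of the colon. Their mRNAs carry a stretch of pyrimidines at the 5′ end (the TOP motif), through which the growth kinase mTOR and the binding protein Larp1 control their translation. Their promoters are short, usually without a TATA box, and often hold sites for ETS-family factors and YY1.

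The RNA libraries held 16403301 to 25494309 estimated reads. Per the authors' deposited table, Cdx2 had a log2 fold change (called log2 change below, DKO over Wt throughout) of -0.27 (SE 0.21, adjusted p = 0.301), and Cdx1 of -1.06 (SE 0.23, adjusted p = 2.08e-05). A total over a gene does not resolve a deleted exon, so Cdx2 does not check the labels, and DKO and Wt are used here as label names only. All 14 listed markers of colon epithelium were measured, with 2 higher and 7 lower in DKO and a median log2 change of -0.52, per the authors' deposited table. Markers of stroma, muscle and endothelium were lower in 20 of 20 (median -5.13), those of B and plasma cells higher in 1 and lower in 7 of 12 (median -1.68), per the authors' deposited table. Markers of T and intraepithelial lymphocytes were higher in 5 of 15 and lower in 0 (median 0.73), and myeloid markers higher in 5 and lower in 3 of 14 (median 0.45), per the authors' deposited table. Crypt and dividing cell markers were higher in 3 and lower in 3 of 18 (median -0.05), per the authors' deposited table. These shifts accompany every RNA value below, and their part in the results was not tested. In bulk RNA, fewer cells of a type and less RNA per cell cannot be told apart.

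The promoters of 5 members on which the RNA and chromatin results turn are given 5′ to 3′ on the gene's strand from RefSeq (GRCm38.p6), from 150 bases before to 10 bases after the most upstream start in the RefSeq promoter table, with capitals for the ETS letters CGGAAG on either strand. Rpl5 is shown as the member with the largest RNA change, Rps15 as the one member called lower in DKO, and Rpl4 for its near lack of an ATAC peak. Rpl15 had a peak in all 4 ATAC libraries, and Rps19 had a Cdx2 peak over its start. The Rpl5 window rests on a start at 107900528, downstream of the first base of the RefSeq gene at 107900508.
Rpl5, chr5:107900378-107900537, plus strand: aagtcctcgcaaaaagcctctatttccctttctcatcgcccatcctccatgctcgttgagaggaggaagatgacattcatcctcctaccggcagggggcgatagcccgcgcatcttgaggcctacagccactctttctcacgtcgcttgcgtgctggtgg
Rps15, chr10:80292281-80292440, plus strand: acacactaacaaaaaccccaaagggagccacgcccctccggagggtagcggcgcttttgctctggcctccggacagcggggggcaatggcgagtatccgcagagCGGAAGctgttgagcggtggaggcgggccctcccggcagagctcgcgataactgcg
Rpl4, chr9:64173237-64173396, plus strand: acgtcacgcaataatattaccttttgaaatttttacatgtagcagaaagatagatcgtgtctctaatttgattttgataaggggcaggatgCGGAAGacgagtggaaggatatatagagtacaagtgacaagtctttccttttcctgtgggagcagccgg
Rpl15, chr14:18270977-18271136, minus strand: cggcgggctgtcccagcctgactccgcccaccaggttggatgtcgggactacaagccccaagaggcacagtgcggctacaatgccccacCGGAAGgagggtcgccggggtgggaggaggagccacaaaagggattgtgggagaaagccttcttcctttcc
Rps19, chr7:24884442-24884601, plus strand: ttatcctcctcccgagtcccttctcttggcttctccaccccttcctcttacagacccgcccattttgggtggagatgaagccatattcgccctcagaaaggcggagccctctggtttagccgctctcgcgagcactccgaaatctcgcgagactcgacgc
The windows of Rps15, Rpl4 and Rpl15 each hold 1 match of the ETS letters, and those of Rpl5 and Rps19 hold 0. The last 10 bases of the Rpl15 window begin at its start with C and run on in C and T, as a TOP mRNA does.

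Few ribosomal protein mRNAs were called as changed between the groups. By the adjusted p of the authors' deposited table, at a threshold of 0.05, 4 of the 80 rose in DKO (Rpl5, Rplp0, Rpl6 and Rpl4) and 1 fell (Rps15). That is 6.25% of the members, beside 36.8% of all genes of the authors' deposited table called either way, 18.5% higher and 18.3% lower. Among the 6591 genes whose mean normalized count was 500 or more, a level that every member exceeded, 47.6% were called (28.5% higher and 19.0% lower), per the authors' deposited table. The mean normalized counts of the members ran from 1088 to 34128 with a median of 9384, per the authors' deposited table. At an unadjusted p under 0.05 the authors' deposited table held 6 of the 80 members, beside 7793 of all 17511 genes. The sixth member was Rps2, which was named after its value was seen. The table gives 1 mean over all libraries for each gene, so no value of a single RNA library can be set beside these folds.

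The members' folds lay in a narrow band. Their median log2 change was 0.04, per the authors' deposited table (quartiles -0.09 and 0.23), with 48 above 0 and 32 below. The sign of that median turns to -0.07 when folds are centred on genes with a mean of at least 500 counts. All genes of the authors' deposited table had a median of -0.02 (quartiles -0.58 and 0.51), and the genes with a mean of at least 500 had 0.10 (quartiles -0.38 and 0.63). The log2 change was within 0.5 of 0 for 76 members (95%), against 46.6% of all genes and 48.9% of the genes with a mean of at least 500, per the authors' deposited table. Across the members its SD was 0.257, close to the median SE of a single member, 0.212, per the authors' deposited table. A 2-fold change was reached by 0 members, against 27.5% of all genes and 22.1% of those with a mean of at least 500, per the authors' deposited table.

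The SEs of the authors' deposited table show how closely each fold was placed. Intervals of 1.96 SE to each side of the log2 change lay inside a 2-fold change either way for 76 members, per the authors' deposited table. Of the 75 members not called, 74 had such an interval, and the exception was Rpl34 (0.40, SE 0.40, per the authors' deposited table). The same held for 26.6% of all genes and for 50.7% of the genes with a mean of at least 500, per the authors' deposited table. The folds appear to be shrunken toward 0, so these intervals describe the deposited values and do not bound the unshrunken change of a gene or of the list.

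**Figure D1:**
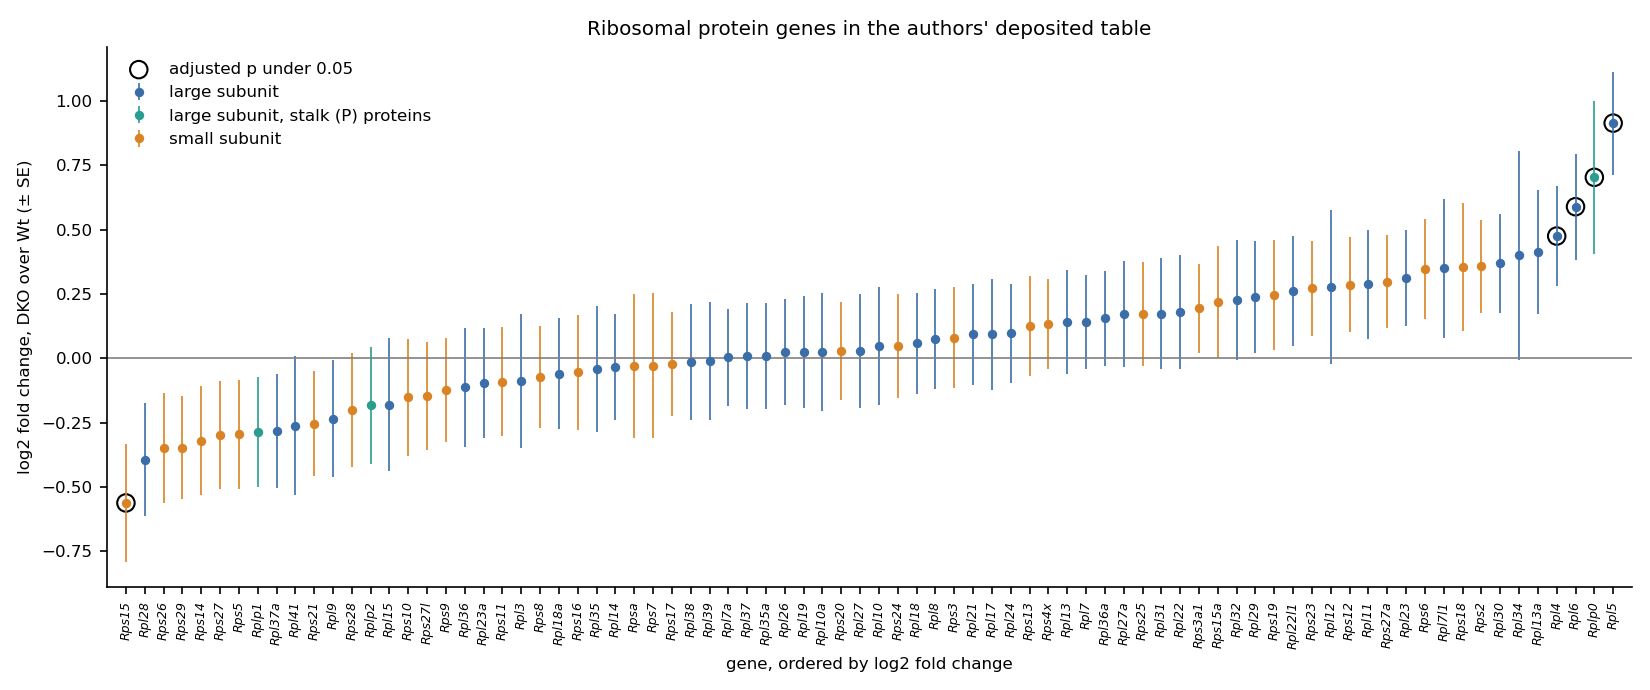
Log2 change of each of the 80 genes, DKO over Wt, with 1 SE to each side, per the authors' deposited table. Genes are ordered by fold along the x axis and coloured by subunit, and circles mark an adjusted p under 0.05. Most points lie between -0.5 and 0.5, with Rpl5 highest at 0.91 and Rps15 lowest at -0.56.

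The large subunit held all 4 members that rose. Rpl5, which with Rpl11 carries the 5S rRNA into the ribosome and can bind the p53 inhibitor Mdm2, had the largest fold. It lies on chromosome 5, 107900508 to 107909005 (GRCm38.p6), and rose 1.88-fold, per the authors' deposited table (log2 change 0.91, SE 0.20, adjusted p = 2.57e-05) at a mean of 3295 normalized counts. Its partner Rpl11 had a log2 change of 0.29 (SE 0.21, adjusted p = 0.287), per the authors' deposited table. The difference between these partners was not tested, since their values per library are not known here.

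The stalk of the large subunit recruits elongation factors, with Rplp0 at its base and dimers of Rplp1 and Rplp2 on it. Rplp0 (chromosome 5, 115559467 to 115563729) rose 1.63-fold, per the authors' deposited table (log2 change 0.70, SE 0.30, adjusted p = 0.0396). Its mean of 34128 normalized counts was the highest count of any member, per the authors' deposited table, a count that is not scaled for length. The stalk partners Rplp1 at -0.29 (SE 0.21, adjusted p = 0.291) and Rplp2 at -0.18 (SE 0.23, adjusted p = 0.559) did not pass, per the authors' deposited table. A normal p from fold over SE, readjusted, gave Rplp0 an adjusted p of 0.0574, above the threshold. The folds appear shrunken, so this p is not that of the authors' test and does not undo their call.

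Rpl6 (chromosome 5, 121204501 to 121209241) rose, per the authors' deposited table (log2 change 0.59, SE 0.21, adjusted p = 0.0124). Rpl4, part of the wall of the tunnel through which the new peptide leaves, lies on chromosome 9, 64173387 to 64178562. It rose 1.39-fold, per the authors' deposited table (log2 change 0.47, SE 0.19, adjusted p = 0.0359). The other 44 large-subunit genes were not called, from Rpl28 at -0.39 (SE 0.22, adjusted p = 0.138) to Rpl13a at 0.41 (SE 0.24, adjusted p = 0.143), per the authors' deposited table. Over the large subunit the median was 0.07, per the authors' deposited table.

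In the small subunit, Rps15 was the 1 gene called. Rps15, a protein of the subunit's head that precursors need for export from the nucleus, lies on chromosome 10, 80292431 to 80294114. It was 1.48-fold higher in Wt, per the authors' deposited table (log2 change -0.56, SE 0.23, adjusted p = 0.0345). Over the small subunit the median was -0.02, per the authors' deposited table, and whether the subunits differ was not tested.

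Other small-subunit genes with known special roles did not pass the threshold. Rpsa, also known as a laminin receptor, had a log2 change of -0.03 (SE 0.28, adjusted p = 0.958), per the authors' deposited table. Rps6, the substrate of the S6 kinases, had 0.35 (SE 0.19, adjusted p = 0.140), per the authors' deposited table. Rps2, an arginine-methylated protein, had 0.36 (SE 0.18, adjusted p = 0.103), per the authors' deposited table. Rps19, whose human counterpart is often mutated in Diamond-Blackfan anaemia, had 0.25 (SE 0.21, adjusted p = 0.368), per the authors' deposited table.

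The set holds 3 paralogs whose symbols add an l to that of another member, and no member of these pairs was called. Rps27l, a paralog that p53 can induce, had a log2 change of -0.15 (SE 0.21, adjusted p = 0.622) beside -0.30 (SE 0.21, adjusted p = 0.260) for Rps27, per the authors' deposited table. Rpl22l1 had 0.26 (SE 0.21, adjusted p = 0.341) beside 0.18 (SE 0.22, adjusted p = 0.564) for Rpl22, per the authors' deposited table. Rpl7l1 had 0.35 (SE 0.27, adjusted p = 0.306) beside 0.14 (SE 0.18, adjusted p = 0.588) for Rpl7, per the authors' deposited table.

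In 7 other lists of genes that make, use or control ribosomes or respond to their failure, 24.4% to 55.6% of the measured genes were called, per the authors' deposited table. Of all genes 36.8% were called, and of those with a mean of at least 500 counts 47.6%, per the authors' deposited table. Only the RNA polymerase I list (42.9%) and the p53 list (55.6%) lay above 36.8%, per the authors' deposited table. Elongation factors and other TOP mRNAs were higher in 5 and lower in 0 of 15, per the authors' deposited table (median 0.13). Eef1a1, which brings aminoacyl-tRNA to the ribosome, rose to a log2 change of 0.75 (SE 0.18, adjusted p = 9.1e-05), per the authors' deposited table. Eef1e1, a part of the multi-tRNA synthetase complex, rose by 1.05 (SE 0.32, adjusted p = 0.00251) and the histone chaperone Nap1l1 by 0.84 (SE 0.21, adjusted p = 0.000283), per the authors' deposited table. Fau, which encodes a ribosomal protein fused to a ubiquitin-like protein and falls outside the symbol rule, had -0.49 (SE 0.22, adjusted p = 0.0596), per the authors' deposited table.

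Initiation factors were higher in 9 and lower in 2 of 36 (median 0.25), per the authors' deposited table. Eif3j1, a loosely bound subunit of eIF3, was at 1.62 (SE 0.67, adjusted p = 0.0112) and Eif1a, which helps scanning, at 1.16 (SE 0.28, adjusted p = 9.1e-05), per the authors' deposited table. The lower members were Eif2b4, of the guanine exchange factor eIF2B, at -1.44 (SE 0.33, adjusted p = 2.95e-05) and the helicase Eif4a2 at -0.81 (SE 0.20, adjusted p = 0.000204), per the authors' deposited table.

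Ribosome assembly factors were higher in 12 and lower in 3 of 50 (median 0.35), per the authors' deposited table. Nmd3, the export adaptor of the large subunit, rose by 1.73 (SE 0.24, adjusted p = 8.96e-12) and Utp15, of the small-subunit processome, by 1.52 (SE 0.27, adjusted p = 7.04e-08), per the authors' deposited table. Utp20, also of the processome, had -2.49 (SE 0.31, adjusted p = 7.67e-15) and the AAA ATPase Mdn1, which strips factors from large-subunit precursors, -1.70 (SE 0.35, adjusted p = 2.52e-06), per the authors' deposited table.

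RNA polymerase I genes were split, with 4 higher and 2 lower of 14 (median -0.06), per the authors' deposited table. The polymerase subunit Polr1f was at 1.12 (SE 0.41, adjusted p = 0.00977) and Taf1d, of the selectivity factor SL1, at 1.11 (SE 0.30, adjusted p = 0.000494), per the authors' deposited table. Taf1c, of the same factor, was at -1.44 (SE 0.28, adjusted p = 7.78e-07) and the subunit Polr1h at -1.18 (SE 0.29, adjusted p = 0.000135), per the authors' deposited table.

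Of 25 growth control genes, 5 were higher and 3 lower (median 0.29), per the authors' deposited table. Pdcd4, an inhibitor of the initiation helicase Eif4a1, rose by 2.72 (SE 0.24, adjusted p = 7.26e-28) and Rps6kb1, the kinase of Rps6, by 1.86 (SE 0.30, adjusted p = 1.72e-09), per the authors' deposited table. The lower ones were Mxi1, a Myc antagonist, at -0.81 (SE 0.22, adjusted p = 0.00102) and Mycn at -3.29 (SE 2.28, adjusted p = 0.0297, mean of only 8.44 normalized counts), per the authors' deposited table. Rptor, of the mTOR complex that drives TOP translation, was the remaining lower gene. Mtor itself rose by 1.29 (SE 0.26, adjusted p = 3.35e-06), while Larp1 had 0.21 (SE 0.21, adjusted p = 0.427) and Myc -0.53 (SE 0.29, adjusted p = 0.109), per the authors' deposited table; these were named for their roles after their values were seen.

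The p53 list was higher in 8 and lower in 2 of 18 (median 0.59, 55.6% called), per the authors' deposited table. Gdf15, a stress-induced hormone, rose by 2.68 (SE 0.34, adjusted p = 1.52e-14) and Trp53inp1, a p53 cofactor, by 1.84 (SE 0.23, adjusted p = 3.76e-14), per the authors' deposited table. Trp53 itself had -1.65 (SE 0.26, adjusted p = 1.11e-09) and Sesn2, a stress inhibitor of mTOR, -1.0 (SE 0.27, adjusted p = 0.000767), per the authors' deposited table.

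Mitochondrial ribosomal proteins, which serve a separate ribosome, were higher in 4 and lower in 15 of 78 (median -0.16), per the authors' deposited table. Mrpl9 was at 0.61 (SE 0.20, adjusted p = 0.00649) and Mrpl57 at 0.61 (SE 0.22, adjusted p = 0.0145), per the authors' deposited table. Mrpl34 was at -1.35 (SE 0.24, adjusted p = 1.67e-07) and Mrpl14 at -0.97 (SE 0.24, adjusted p = 0.000177), per the authors' deposited table. In counts of calls, 24.4% of the mitochondrial and 6.25% of the cytosolic genes passed, per the authors' deposited table.

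**Figure D2:**
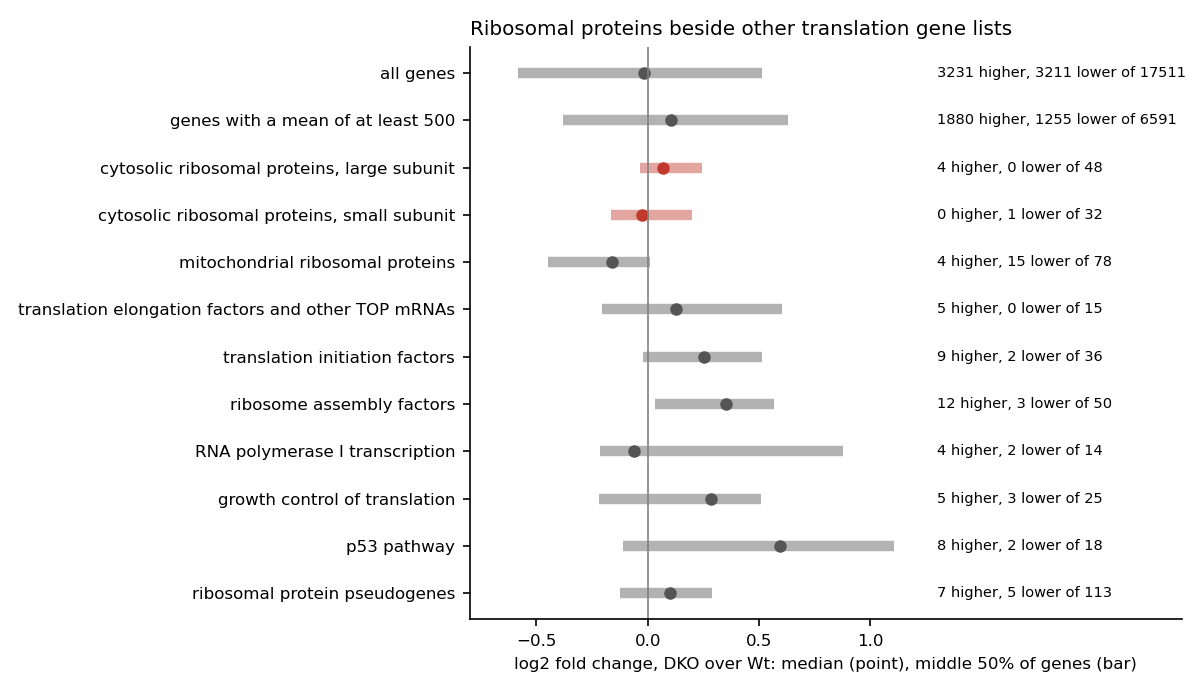
Median log2 change (point) and the middle 50% of genes (bar) for all genes, both ribosomal subunits and the lists of translation, p53 and pseudogenes, DKO over Wt, with the counts called higher and lower at an adjusted p under 0.05, per the authors' deposited table. The bars of both ribosomal subunits (red) are narrower than that of all genes, and the p53 list has the highest median of the groups plotted, 0.59 (the cell type markers are not plotted).

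ATAC-seq, in which a transposase cuts into accessible DNA, was read at the promoters of the members. RefSeq promoter windows from 250 bases before to 50 after a start were matched by symbol for 60 of the 80 members, and the other 20 were not analysed here. A promoter counted as holding a peak when at least 1 base of a peak in the authors' list for that library fell in a window. Of the 60 members, 58 (96.7%) had a peak in Wt replicate 1 and 59 (98.3%) in Wt replicate 2, against 3 (5.0%) in DKO replicate 1 and 13 (21.7%) in DKO replicate 2. Both Wt libraries lay far above both DKO libraries.

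The same direction held over all promoters, at a smaller difference. Among the 12071 genes of the RNA table with a promoter, the shares were 75.5% and 77.5% in Wt and 15.9% and 33.3% in DKO. Among the 5250 with a mean of at least 500 counts they were 90.1% and 91.3% in Wt and 18.9% and 40.7% in DKO. The mean Wt share exceeded the mean DKO share by 84.2 percentage points in the members (97.5% against 13.3%), by 51.9 in the genes of the RNA table and by 60.9 in those with a mean of at least 500. An exact two-sided permutation test over the 4 libraries gave p = 0.333 for each set, the smallest that 2 against 2 can give. The difference between the members and other genes was not tested.

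The DKO lists themselves stood apart, which touches every value on promoters. They held 40101 and 23961 peaks, against 48163 and 53943 in Wt. Only 5.74% of the peaks of DKO replicate 1 lay at any promoter, beside 18.1% in DKO replicate 2 and 21.0% and 19.5% in Wt. Without DKO replicate 1 the difference in the members was 75.8 points. With the 20000 peaks of highest -log10 q from each list, a comparison added after seeing the data, the shares in the members were 85.0% and 80.0% in Wt and 1.67% and 21.7% in DKO. In the genes with a mean of at least 500 counts they were 82.1% and 82.2% in Wt and 10.1% and 38.5% in DKO. At equal list size the members thus stood above these genes in Wt replicate 1 but not in Wt replicate 2. The depth of the ATAC libraries is unknown here, so a missing peak cannot be told apart from a signal too weak for that library's caller.

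**Figure D3:**
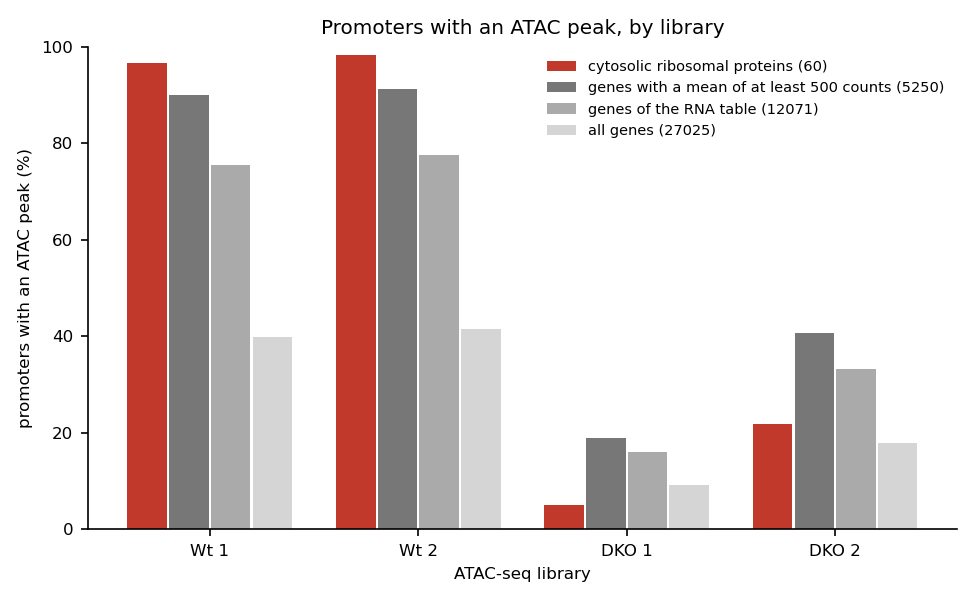
Share of promoters with an ATAC peak in each of the 4 libraries (bars from 0), for the 60 ribosomal protein genes and for 3 wider sets of genes. In Wt the ribosomal protein bars reach 96.7% and 98.3%, above the other sets, and in DKO they stand at 5.0% and 21.7%, below the genes with a mean of at least 500 counts.

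A peak in both Wt lists and in neither DKO list was found at 45 of the 60 members (75%). The same pattern was found at 39.2% of the genes of the RNA table, at 46.5% of those with a mean of at least 500 and at 20.6% of all genes with a promoter. The opposite pattern was found at 0 members, at 0.0994% of the genes of the RNA table, at 0.0571% of those with a mean of at least 500 and at 0.274% of all genes. Peaks in all 4 lists were found at 3 members, Rpl15, Rps13 and Rps27l. Rps25 had no peak in any list and Rpl4 had one only in Wt replicate 2, while the next 45 by number of missing peaks are tied.

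Fold enrichment over local background, as the authors' caller gave it, describes how strong each peak was. Over the members with a peak its median was 6.95 and 6.89 in Wt replicates 1 and 2, and 4.12 and 4.82 in DKO. Within their own lists, the strongest peaks of the members' windows stood at a median percentile of 81.0 and 79.6 in Wt (58 and 59 members). In DKO replicates 1 and 2 this median was 63.6 and 83.3 (3 and 13 members). These medians run over the peaks of all windows, and 1 member can add more than 1 peak. Taken by member, the median in DKO replicate 2 was that of Rps23, 88.0 (fold enrichment 4.82). By fold DKO replicate 2 stood below both Wt libraries, and each median covers only the members with a peak in that list. In Wt the same 13 members stood at median percentiles of 94.3 and 90.3, above the 88.0 of DKO replicate 2. Summits lay within 100 bases of a start for 40 of 58 members in Wt replicate 1 and 44 of 59 in Wt replicate 2. The median summit stood at -33 and -41 bases from the start in these libraries, on the upstream side, and the median peak width was 338 and 457 bases.

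The 3 members with a peak in all 4 lists also had high fold enrichments in Wt. Rpl15 had fold enrichments of 12.2 and 12.2 in Wt and 3.24 and 5.68 in DKO. Rps13, a small-subunit protein, had 12.1 and 12.2 in Wt and 4.12 and 4.88 in DKO. Rps27l had 9.34 and 10.7 in Wt and 4.29 and 5.23 in DKO. In each of these genes both Wt values lay above both DKO values, on scales that each library's caller set separately.

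The members whose RNA was called did not share a promoter pattern. Rpl5 had fold enrichments of 7.02 and 5.87 in Wt and a peak of 4.95 in DKO replicate 2 only. Rplp0 had 7.25 and 6.89 in Wt and no peak in DKO. Rpl6 had 5.21 and 5.10 in Wt and no peak in DKO. Rps15, the member that fell, had 5.75 and 4.72 in Wt and no peak in DKO, as did Rplp0 and Rpl6, which rose. Rpl4 had 4.48 in Wt replicate 2 alone, although its mean of 23014 normalized counts, per the authors' deposited table, was higher than the members' median.

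Members with a DKO peak ranked higher in Wt. The 13 members with a peak in at least 1 DKO list had median percentiles of 94.3 and 90.3 in Wt, against 73.9 and 77.9 for the 47 members without one. The median log2 changes of RNA in these groups were 0.17 and 0.05, per the authors' deposited table. Among the 13, 1 was called higher, and among the 47, 3 were higher and 1 lower. Of all 80 members 6.25% were called and of all genes 36.8%, per the authors' deposited table. Whether the 13 and the 47 differ was not tested. For the 45 members with peaks in both Wt lists and no DKO list the median was 0.03, per the authors' deposited table.

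**Figure D4:**
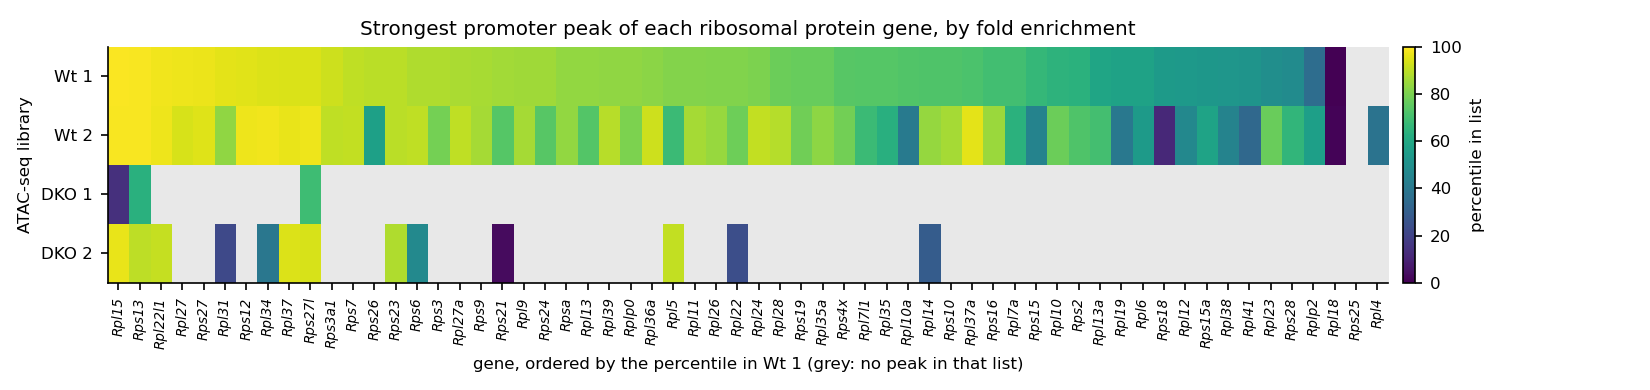
Percentile of each member's strongest promoter peak, by fold enrichment, within its own ATAC list (colour, 0 to 100), with the 4 libraries as rows and the 60 genes as columns ordered by Wt replicate 1. Grey marks no peak: the DKO rows are coloured at 3 and 13 genes, the Wt rows at 58 and 59.

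Cdx2 ChIP-seq, which maps DNA bound by the factor, gave 1 list of 5179 peaks without a replicate. A Cdx2 peak touched the promoter window of 2 of the 60 members (3.33%), against 1.17% of all genes, 2.1% of the genes of the RNA table and 2.55% of those with a mean of at least 500. The peak at Rps19 covered the start printed above (chr7:24884450-24884803, mm10), with a fold enrichment of 5.47 and a -log10 q of 6.78. The peak at Rpl23 (chr11:97782480-97782677, mm10) lay 41 bases from the start, with a fold enrichment of 3.86 and a -log10 q of 2.98. The next nearest Cdx2 peak to a member was 14737 bases from the start of Rpl37a.

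Rps19 and Rpl23, a large-subunit protein that can also bind Mdm2, were not called in RNA. Rpl23 had a log2 change of 0.31 (SE 0.19, adjusted p = 0.174), per the authors' deposited table. Both had ATAC peaks in Wt and none in DKO, with fold enrichments of 6.5 and 6.67 at Rps19 and 4.91 and 6.57 at Rpl23. With 1 ChIP library, tagged untreated, there is no measure of the spread of these peaks.

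The 71 promoter windows of the 60 members were searched for 7 sets of letters, on both strands unless stated, beside all 32851 windows of the same length. The ETS letters CGGAAG were found in 44 windows (62.0%) against 16.9% of all, and in 41 of the 60 genes. The YY1 letters CGCCATNTT were found in 10 (14.1%) against 2.38%, and the GC box GGGCGG in 44 (62.0%) against 35.7%. The E box CACGTG was found in 8 (11.3%) against 7.15%. Letters of the caudal family, to which Cdx1 and Cdx2 belong, TTTATNG, were found in 5 (7.04%) against 10.9%, at Rpl36a, Rpl39, Rplp0, Rps2 and Rps28. Neither Rps19 nor Rpl23 was among these. Of the 27025 genes with a promoter, 12071 were in the RNA table. Windows of genes with RNA levels like the members' were not counted apart.

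On the gene's strand, TATAA in the 40 bases before the start was found in 5 windows (7.04%) against 4.23%, at Rpl22l1, Rps9, Rps18, Rps26 and Rps27. A C at the start followed by 4 of C or T was found in 13 (18.3%) against 2.51%, which depends on the exact base that RefSeq gives as the start. Those 13 were Rpl14, Rpl15, Rpl28, Rpl35, Rpl35a, Rpl38, Rplp2, Rps6, Rps10, Rps15a, Rps18, Rps21 and Rps27. These matches are letters in a window and not sites, and windows of 1 gene can overlap.

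Ribosomal protein mRNAs have left many processed copies in the genome, which can share reads with the parent gene. The authors' deposited table held 113 copies with a pseudogene biotype named after 46 of the 80 members (the member's symbol followed by -ps). Of these 7 were called higher and 5 lower (10.6%, beside 36.8% of all genes), with a median of 0.10, per the authors' deposited table. A mean under 50 normalized counts was found for 81 of them, per the authors' deposited table. Among the 21 with a mean of at least 500 counts, 4 were higher and 0 lower (19.0% called), per the authors' deposited table. Of all genes at that level 28.5% were higher and 19.0% lower (47.6% called), per the authors' deposited table. Without the biotype filter, which leaves out copies marked protein-coding, 119 such names were found, and at means of at least 500 counts 5 of 25 were higher and 1 lower, per the authors' deposited table. The 1 that was lower was Rplp2-ps1 (-0.98, SE 0.25, adjusted p = 0.000273, mean 780 normalized counts), per the authors' deposited table. Copies with a pseudogene biotype held over 10% of the summed mean of parent and copies for 16 members, and over 50% for 1, Rps7, per the authors' deposited table. With copies of any biotype it was 18 members, with Rps18 (38.8%) and Rpl10 (27.6%) added, per the authors' deposited table.

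The 5 copies with a pseudogene biotype and the highest means were Rps2-ps10, Rps7-ps3, Rpl3-ps1, Rpl17-ps3 and Rpl28-ps1. Rps7-ps3 had a mean of 10857 normalized counts against 1088 for Rps7, which is 90.9% of their sum, and their log2 changes were 0.19 and -0.03, per the authors' deposited table. Rpl3-ps1 (mean 7958) rose by 0.85 (SE 0.26, adjusted p = 0.00292), whereas Rpl3 itself had -0.09 (SE 0.26, adjusted p = 0.831), per the authors' deposited table. Rps2-ps10 (mean 12740) was at 0.27 beside 0.36 for Rps2, Rpl17-ps3 (mean 6056) at 0.07 beside 0.09, and Rpl28-ps1 (mean 5795) at -0.23 beside -0.39, per the authors' deposited table. How reads were shared between copies and their parents was not tested. Copies of any biotype held over 10% of the summed mean for 18 members, per the authors' deposited table. The folds of all these members are uncertain because of possible read sharing. Among them are Rps7, Rpl17, Rpl3, Rps2, Rps18, Rpl28, Rpl30, Rpl36a, Rps23, Rpl15 and Rpl10.

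The largest changes among the copies were not those of their parents. Rplp0-ps1 had a log2 change of -4.88 (SE 0.40, adjusted p = 9.31e-34, 29.5-fold higher in Wt) at a mean of 486 normalized counts, per the authors' deposited table, while Rplp0 rose. It held 1.40% of the summed mean of Rplp0 and its copy, per the authors' deposited table. Rpl10a-ps1 rose by 2.17 (SE 0.32, adjusted p = 7.74e-11) at a mean of 1013, beside 0.02 for Rpl10a, per the authors' deposited table. Rpl27-ps1 at 5.39 (SE 3.12) and Rpl12-ps1 at -4.36 (SE 3.82) were also called, at means of only 9.0 and 7.22 normalized counts, per the authors' deposited table. The copies of Rpl5, Rpl5-ps1 and Rpl5-ps2, were not called and held 2.61% of its summed mean, per the authors' deposited table.

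**Figure D5:**
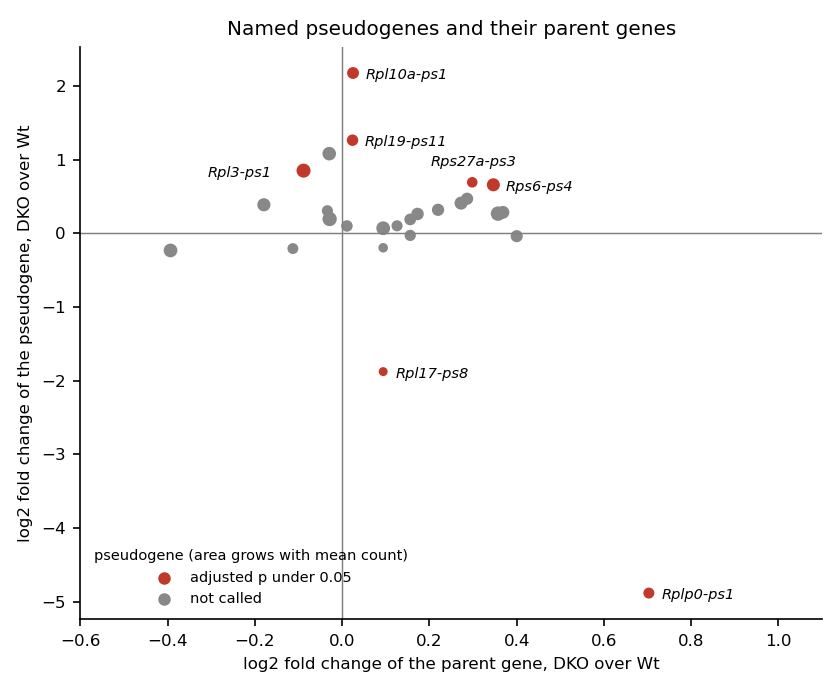
Log2 change of the 26 named copies with a pseudogene biotype whose mean normalized count was 100 or more (y axis) against that of the parent gene (x axis), DKO over Wt, per the authors' deposited table. Red marks the 7 pseudogenes with an adjusted p under 0.05, and point area grows with the mean count. Rplp0-ps1 lies at -4.88 while its parent lies at 0.70, and Rpl10a-ps1 at 2.17 while its parent lies near 0.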

How the data were processed

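RNA-seq and ATAC-seq had 2 DKO and 2 Wt libraries each and Cdx2 ChIP-seq had 1, grouped by title. Tools named in the submitters' processing notes, without roles, are fastp, Bowtie2, BWA, MACS2, DESeq2 and Salmon 1.3.0, with builds GRCm38 and mm10. Their settings, any transposase read shift and the control of the ChIP are not stated there. The transcript files hold estimated counts and TPM, which the authors made with Salmon, per the file headers; only the estimated counts were used, for library totals and scaling. The gene table's mean normalized count is a signal that the authors scaled between libraries, per the file headers. The log2 fold changes and SEs in it were also made by the authors. Its p-values and adjusted p-values are the authors', and the latter equal the Benjamini-Hochberg adjustment of the former; fold over SE returned the deposited p within 0.01 in log10 for 1751 of 17511 genes, so folds appear shrunken. Each peak's fold enrichment ratio, its -log10 p, its -log10 q and a score (10 times -log10 q, rounded down) come from the authors' peak lists, as deposited, called per library with a -log10 q of at least 1.30 in ATAC and 1.54 in ChIP.

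The planned gene-level test (edgeR) was not run, because no table used here pairs transcript IDs with genes; calls are the authors' adjusted p under 0.05 over all genes, and no RNA value per library can be given. Levels per length were likewise not ranked. Promoter windows were matched by symbol with at least 1 bp of overlap, with scipy 1.17.1, pandas 2.3.3 and numpy 2.4.6 under Python 3.11.15; figures used matplotlib 3.10.9. Scaling factors came from edgeR 4.0.16 (TMM) and DESeq2 1.42.0 (median ratio) in R 4.3.3. The Benjamini-Hochberg adjustment used here and the window overlaps were tested on simulated data, and the authors' own RNA calls were not. Genes named are the called members, the P proteins and Rpsa, 3 paralog pairs, the 2 highest and 2 lowest called genes of each list, members with most missing or with Cdx2 peaks, and the 5 pseudogenes of highest mean; others are said to be chosen later or illustrate a role or a range. The members and lists were chosen with earlier results of these data known. Alternatives covered thresholds, filters, scaling, windows and left-out ATAC libraries.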

Additional observations from a re-analysis of the deposited data

How the results depend on the processing

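The count of 5 called members became 1 at an adjusted p under 0.01 (Rpl5 alone) and 3 with a change of at least 1.5-fold. It stayed at 5 with means of at least 50 or 500 normalized counts and p readjusted, and at 5 of 76 without the paralogs Rps27l, Rpl22l1 and Rpl7l1 and the X-linked Rps4x, whose names end in l, l1 or x. Counting copies of any biotype, chosen after seeing the data, gave 119 copies in place of 113, 1 in place of 0 called lower and 5 in place of 4 called higher at means of at least 500, and 18 in place of 16 members whose copies hold over 10%. A normal p from fold over SE gave 4 called members, without Rplp0. The share of all genes called under these changed RNA settings was not counted, so these counts describe the members alone. The median log2 change of 0.04 became 0.03 with a TMM shift and 0.12 with a library-total shift (0.08). Centred on genes with a mean of at least 500 it became -0.07. Each value lay within the members' spread. The TMM and library-total shifts were constants from transcript counts, taken against median-ratio factors. They were added to the deposited folds without a refit. The Wt minus DKO difference of 84.2 points ran from 75.8 to 92.5 with each ATAC library left out, and was 88.3 with a -log10 q of at least 5, 84.2 with the start covered, 79.2 with 500 bases to each side and 70.8 with 20000 peaks a list. The count of 45 members with peaks in both Wt and no DKO list ran from 45 to 55 with each library left out, and was 49, 44, 42 and 31 under the same settings. The share in the genes of the RNA table moved too. It was 58.6% beside 91.7% of the members without DKO replicate 2, and 32.1% beside 51.7% with 20000 peaks a list. It was 51.5% with a -log10 q of at least 5, 40.7% with the start covered and 33.5% with 500 bases to each side. The Wt minus DKO difference in these genes, 51.9 points, ran from 43.2 to 60.6 with each library left out. Under the same settings it was 61.1, 52.97, 46.3 and 45.6 points. The members' values were higher under each setting, which was not tested. The count of 2 members with a Cdx2 peak (3.33%) stayed at 2 within 5000 bases. There 4.63% of all genes and 6.88% of the genes of the RNA table have one, both above the members' share. With a -log10 q of at least 5 the count fell to 1 (Rps19), where 0.599% of all genes have a peak. No paired analysis was possible because the calls come from the authors' table and no table used here pairs transcript IDs with genes. The gene-level fits with edgeR and DESeq2, without the low-count filter, with a replicate block and with left-out RNA libraries were not run for the same reason. Peaks hold no read depth here, so weak signal below a caller's threshold cannot be seen.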

Other observations

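A few ribosomal protein genes stand outside the symbol rule. Rpl36al, a working copy of Rpl36a, had a log2 change of -0.20 (SE 0.19, adjusted p = 0.421), per the authors' deposited table. Copies with pseudogene-style names but a protein-coding biotype, and the transcribed pseudogene Rps4l, went in both directions. Rps4l (-0.88, SE 0.33, adjusted p = 0.0140) and Rplp2-ps1 (-0.98, SE 0.25, adjusted p = 0.000273) were lower, per the authors' deposited table. Rps18-ps6 (0.58, SE 0.25, adjusted p = 0.0465) was higher, while Rpl10-ps3 (0.09) and Rps18-ps5 (0.24) were not called, per the authors' deposited table.

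Among the 4 members that rose, Rpl5, Rplp0 and Rpl6 all lie on chromosome 5, within 13.3 megabases, a grouping that was chosen after seeing the values. The other members on that chromosome, Rpl9 and Rpl21, had log2 changes of -0.24 (SE 0.23, adjusted p = 0.432) and 0.09 (SE 0.20, adjusted p = 0.764), per the authors' deposited table. Of the 152 genes of that stretch, per the authors' deposited table, 17.8% were higher and 25% lower, beside 19.4% and 18.8% of the 16319 genes with a RefSeq span.

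Over all genes of the RNA table, a promoter peak in both Wt lists and no DKO list went with a median log2 change of -0.06, with 37.4% of 4731 genes called, per the authors' deposited table. Genes with a peak in all 4 lists had a median of 0.26, with 527 higher and 166 lower of 1544, per the authors' deposited table. In the same grouping the ribosomal protein genes had medians of 0.03 (45 genes) and -0.15 (3 genes), per the authors' deposited table. The difference between these groups was not tested.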
